A study of Mus musculus with 8 samples.

Results

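The NADPH oxidase genes described here are Cybb, Cyba, Ncf1, Ncf4, Rac1, Rac2 and Nox4. These 7 genes were taken by symbol from the 31053 Ensembl genes counted in brown adipose tissue (BAT), and 6 of them were among the 8930 genes with enough counts to be tested. Bulk RNA-seq had been performed on BAT of 4 WT mice and 4 Ucp1Δ/Δ mice, labelled ATGLKO, to ask how the tissue changes when brown adipocytes cannot release fatty acids from stored triglyceride through ATGL, the lipase encoded by Pnpla2. Ucp1Δ/Δ mice carry floxed Pnpla2 (Pnpla2 fl/fl) and a Cre recombinase driven by the Ucp1 promoter, so the deletion is directed to cells that use that promoter, the brown adipocytes, and Pnpla2 in macrophages and other cells of the depot is not the target. All mice were males, labelled C57BL6/J and 10 weeks of age, whereas the legend of the study gives a younger age for this experiment. Whether the WT mice carried floxed alleles or were littermates is not given in the sources used here.

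The phagocyte NADPH oxidase, NOX2, moves electrons from NADPH across a membrane onto oxygen and so makes superoxide. Its core is a membrane heterodimer of gp91phox (Cybb), which carries the flavin and haems, and p22phox (Cyba), which stabilises it. On activation cytosolic subunits, among them the organizer p47phox (Ncf1) and p40phox (Ncf4), join the core together with a Rac GTPase loaded with GTP. Rac2 is largely limited to blood-derived cells, whereas Rac1 is made by nearly every cell type. Nox4 is a related oxidase that also pairs with p22phox but needs neither the cytosolic subunits nor Rac, mainly releases hydrogen peroxide, and is best known from non-immune cells such as adipocytes, fibroblasts and vascular cells. In adipose tissue, macrophages are a major site of NOX2.

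The promoter windows are shown so that the letters and base composition around each start can be read beside the expression of the gene. Each window runs from 250 bases before to 50 bases after the RefSeq start site on GRCm38.p6, written 5′ to 3′ on the strand of the gene, and 4 of the 7 members had one in the RefSeq table used. Ncf4, Rac1 and Rac2 had no entry there. Capitals mark a match to GAGGAA, letters of one form of the site of the myeloid factor PU.1, here read on the opposite strand. Shorter parts of these letters, such as GGAA, were not searched and are not marked.
Cybb (chrX:9469275-9469574, minus strand): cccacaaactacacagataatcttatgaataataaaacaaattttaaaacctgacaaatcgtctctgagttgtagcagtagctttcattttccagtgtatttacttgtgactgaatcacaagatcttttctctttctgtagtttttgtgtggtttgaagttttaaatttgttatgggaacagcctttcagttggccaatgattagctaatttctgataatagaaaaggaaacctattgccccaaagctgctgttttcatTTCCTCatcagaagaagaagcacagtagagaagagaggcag
Cyba (chr8:122432891-122433190, minus strand): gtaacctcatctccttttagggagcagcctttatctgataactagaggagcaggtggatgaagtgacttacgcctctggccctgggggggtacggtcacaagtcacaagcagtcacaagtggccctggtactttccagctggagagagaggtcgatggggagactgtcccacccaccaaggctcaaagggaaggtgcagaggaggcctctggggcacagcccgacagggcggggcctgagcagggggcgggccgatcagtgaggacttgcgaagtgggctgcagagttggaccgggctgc
Ncf1 (chr5:134229576-134229875, minus strand): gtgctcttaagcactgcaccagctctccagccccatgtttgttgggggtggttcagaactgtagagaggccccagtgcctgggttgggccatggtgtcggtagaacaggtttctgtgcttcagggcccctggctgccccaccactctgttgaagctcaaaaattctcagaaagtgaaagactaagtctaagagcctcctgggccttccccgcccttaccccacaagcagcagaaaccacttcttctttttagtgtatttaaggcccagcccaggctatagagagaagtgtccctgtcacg
Nox4 (chr7:87246399-87246698, plus strand): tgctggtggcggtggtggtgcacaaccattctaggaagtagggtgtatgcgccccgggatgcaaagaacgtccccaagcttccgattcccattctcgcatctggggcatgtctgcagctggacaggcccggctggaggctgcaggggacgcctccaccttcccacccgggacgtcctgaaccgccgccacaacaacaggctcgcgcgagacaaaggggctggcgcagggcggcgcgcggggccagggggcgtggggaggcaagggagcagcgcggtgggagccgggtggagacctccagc

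The Cybb window held 1 match to GAGGAA, on the opposite strand, whose first base here is base 10 counted from 1 at the start site, and the Cyba, Ncf1 and Nox4 windows held none. Of all 32851 RefSeq promoter windows searched in the same way on both strands, 28.3% held these letters. TGACTCA, the letters bound by AP-1 factors, was in none of the 4 windows and in 5.2% of all windows. The Cybb window was poor in G and C, at 35.3%, with 1 CpG, and the Nox4 window was rich in them, at 68.3%, with 24 CpGs. The Cyba and Ncf1 windows lay between these, with 60.7% and 54% G and C and 9 and 3 CpGs, and the median of all windows was 52.7% and 7 CpGs. A match or its absence describes these letters in these windows and nothing about the binding of a factor.

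The libraries were shallow for genes of this level. Total counts ran from 2017697 to 3115956 in WT mice and from 2240612 to 2941799 in Ucp1Δ/Δ mice, and genes encoded by the mitochondrial genome took between 38.4% and 45.6% of them. Levels are given in CPM, counts scaled by the size of the library, and 3 counts correspond to between 0.933 and 1.53 CPM, a limit that covers counting error only. Pnpla2 was 2913 ± 191 CPM (SD, n = 4) in WT mice and 474 ± 59.2 CPM (SD, n = 4) in Ucp1Δ/Δ mice, and its log2FC was -2.62 (standard error 0.17, adjusted p = 1.97e-07). Here and throughout, adjusted p-values are from the quasi-likelihood test of edgeR, adjusted by the Benjamini-Hochberg method over all tested genes, and mice are numbered by the replicate number of their label. Counts by gene do not separate floxed from recombined transcripts. The labels give the stromal vascular fraction as the cell type and BAT as the tissue. Ucp1, the uncoupling protein of brown adipocytes, ran from 1291 to 4110 CPM in WT mice and from 1421 to 2821 CPM in Ucp1Δ/Δ mice, so adipocyte RNA was abundant in every library. Skeletal muscle markers summed to between 17.7 and 1317 CPM in WT mice and between 59.3 and 1779 CPM in Ucp1Δ/Δ mice, a spread within both genotypes.

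Most of the oxidase genes tested were higher in BAT of Ucp1Δ/Δ mice. Of the 6 members tested, 5 rose (Cybb, Cyba, Ncf1, Rac2 and Nox4), none fell and Rac1 did not pass the test, against 13.3% of all 8930 tested genes that were called higher and 7.63% that were called lower. These were 1191 and 681 genes. When libraries were scaled to their totals alone, 1478 rose and 404 fell, and the same number of members, 5, was higher. In those 5 genes every Ucp1Δ/Δ mouse lay above every WT mouse, which was so for 14.4% of all tested genes. Cyba, Ncf1, Rac2 and Nox4 were low in WT mice and had enough counts to be tested through the Ucp1Δ/Δ mice. The numbers of members called and not overlapping therefore follow in part from that filter. With at least 10 counts required in every mouse, 2 members were tested and 1, Cybb, was called. The log2FC of the tested members ran from 0.29 to 3.68 with a median of 2.93, beside a median of -0.0087 over all tested genes. Without the 2 mice of each genotype with the most muscle marker counts, an alternative chosen after seeing the data, the same count of 5 members was called higher. In bulk tissue, more cells of a type and more RNA per cell cannot be told apart.

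**Figure D1:**
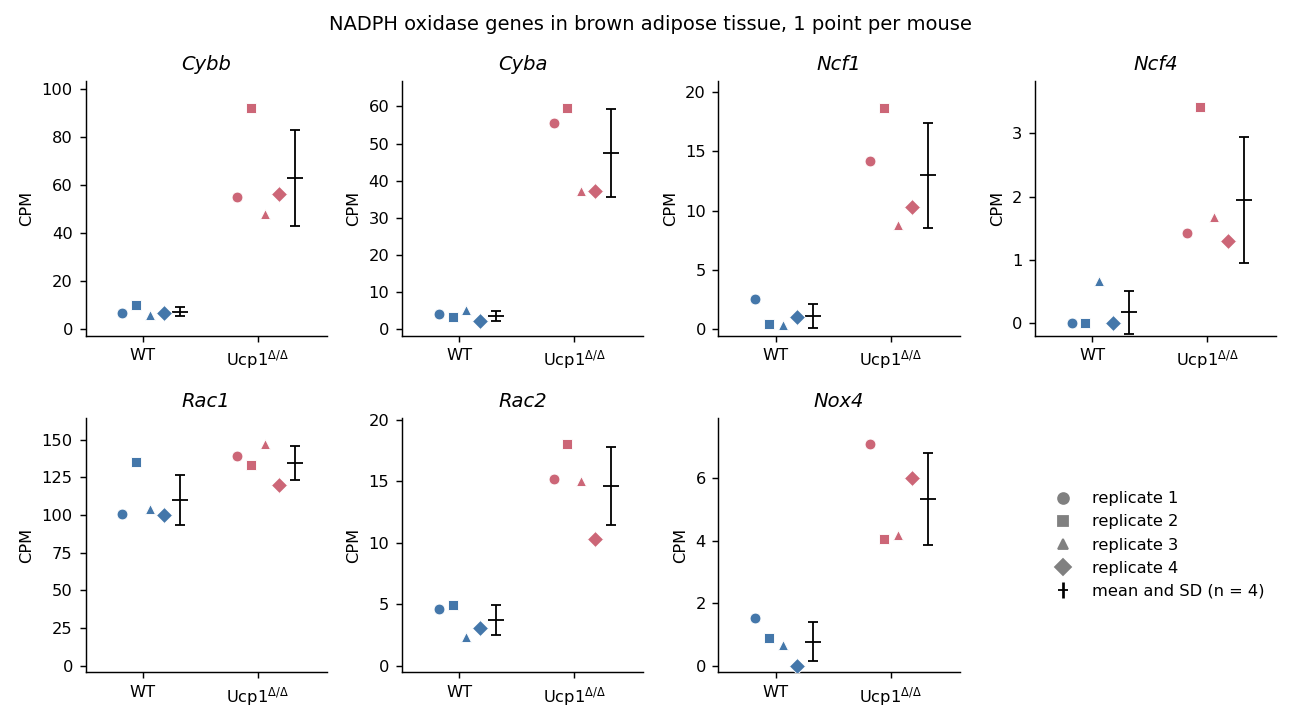
Level in CPM (vertical axis, linear, a different range in each panel) of the 7 NADPH oxidase genes in BAT of 4 WT and 4 Ucp1Δ/Δ mice; each point is 1 mouse, its shape the replicate number, and the bar the mean and SD. The genotypes are apart in every panel but Rac1, where WT replicate 2, at 135 CPM, lies among the Ucp1Δ/Δ mice at 120 to 147 CPM.

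Cybb (ENSMUSG00000015340), the gene of the catalytic subunit gp91phox, is protein coding and lies on the minus strand of chromosome X of mm10 from 9435252 to 9487771. Its level was 6.63, 9.86, 5.68 and 6.59 CPM in WT mice 1 to 4 and 55.2, 92.4, 48.1 and 56.2 CPM in Ucp1Δ/Δ mice 1 to 4. The genotypes were far apart, and within the Ucp1Δ/Δ group replicate 2 stood highest. The mean rose from 7.19 ± 1.83 to 63.0 ± 20 CPM (SD, n = 4 each), an 8.76-fold difference, and the log2FC was 3.14 (standard error 0.26, adjusted p = 1.10e-06, edgeR). By size of log2FC Cybb ranked 102 among the 8930 tested genes.

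Cyba (ENSMUSG00000006519), which encodes p22phox, the partner shared by NOX2 and NOX4, is protein coding and lies on the minus strand of chromosome 8 from 122424776 to 122432930. Its level was 4.08, 3.14, 5.01 and 2.03 CPM in WT mice 1 to 4 and 55.5, 59.7, 37.2 and 37.3 CPM in Ucp1Δ/Δ mice 1 to 4. Ucp1Δ/Δ replicates 1 and 2 were above replicates 3 and 4, and all 4 were well above the WT mice. The mean rose 13.3-fold, from 3.56 ± 1.28 to 47.5 ± 11.9 CPM (SD, n = 4 each), and the log2FC was 3.68 (standard error 0.29, adjusted p = 6.13e-07, edgeR). This was the largest log2FC of the tested members, and ranked 47 among all tested genes.

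Ncf1 (ENSMUSG00000015950), the gene of the organizer p47phox, is protein coding and lies on the minus strand of chromosome 5 from 134220053 to 134229625. Its counts were 5, 1, 1 and 2 in WT mice 1 to 4 and 40, 60, 21 and 24 in Ucp1Δ/Δ mice 1 to 4. All WT mice but replicate 1 were thus below 3 counts, whereas each Ucp1Δ/Δ mouse was far above. In CPM the level was 2.55, 0.448, 0.334 and 1.01 in WT mice and 14.2, 18.7, 8.78 and 10.3 in Ucp1Δ/Δ mice, and the mean rose 11.9-fold from 1.09 ± 1.02 to 13.0 ± 4.42 CPM (SD, n = 4 each). The log2FC was 3.66 (standard error 0.48, adjusted p = 5.55e-05, edgeR). An exon of Gtf2ird2 on the opposite strand overlaps Ncf1 and shared 5.44% of its 75-base windows, and whether the counting used strand is not stated. Gtf2ird2 itself, too low to be tested in the fit, was 2.52 ± 1.15 CPM in WT mice and 3.98 ± 1.39 CPM in Ucp1Δ/Δ mice (SD, n = 4 each, two-sided exact permutation test on log2 CPM, p = 0.2).

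Ncf4 (ENSMUSG00000071715), the gene of p40phox, which helps to sustain the oxidase on phagosomes, is protein coding and lies on the plus strand of chromosome 15 from 78244801 to 78262580. It had too few counts for the test across genes, with 0, 0, 2 and 0 counts in WT mice 1 to 4 and 4, 11, 4 and 3 in Ucp1Δ/Δ mice 1 to 4. The genotypes did not overlap, but every WT mouse was under 3 counts. The level was 0.167 ± 0.334 CPM in WT mice and 1.95 ± 0.995 CPM in Ucp1Δ/Δ mice (SD, n = 4 each). The mean log2 CPM differed by 1.5 with a prior count of 2, and a two-sided exact permutation test gave p = 0.0286, the smallest that 4 mice against 4 allow. The ratio of the pooled CPM was 9.36 with a 95% interval from 2.30 to 82.1 that covers counting error only. When genes with at least 1 count in any mouse were kept, edgeR called Ncf4 higher (log2FC 2.93, adjusted p = 0.0188), whereas DESeq2's Wald test did not (log2FC 3.18, adjusted p = 0.072).

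Of the Rac GTPases, Rac2 rose and Rac1 did not pass the test. Rac2 (ENSMUSG00000033220), the form of blood-derived cells, is protein coding and lies on the minus strand of chromosome 15 from 78559167 to 78572783. Its level was 4.59, 4.93, 2.34 and 3.04 CPM in WT mice 1 to 4 and 15.2, 18, 15 and 10.3 CPM in Ucp1Δ/Δ mice 1 to 4. The lowest Ucp1Δ/Δ mouse, replicate 4, was still above the highest WT mouse. The mean rose 3.93-fold, from 3.72 ± 1.24 to 14.7 ± 3.21 CPM (SD, n = 4 each), and the log2FC was 2 (standard error 0.31, adjusted p = 0.000255, edgeR).

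Rac1 (ENSMUSG00000001847), the widely made form, is protein coding and lies on the minus strand of chromosome 5 from 143503634 to 143528036. Its level was 101, 135, 104 and 99.8 CPM in WT mice 1 to 4 and 139, 133, 147 and 120 CPM in Ucp1Δ/Δ mice 1 to 4. The genotypes overlapped, since WT replicate 2 lay above Ucp1Δ/Δ replicates 2 and 4. The means were 110 ± 16.6 and 135 ± 11.4 CPM (SD, n = 4 each), and the log2FC of 0.29 (standard error 0.17, adjusted p = 0.245, edgeR) had a 95% interval from -0.06 to 0.64, that is, from 0.958 to 1.56 times the WT level. An exon of Daglb on the opposite strand covers much of the Rac1 transcript, and 49.7% of the 75-base windows of Rac1 also lay in Daglb. Daglb had 14, 16, 15 and 5 counts in WT mice and 46, 60, 20 and 38 in Ucp1Δ/Δ mice (log2FC 1.45, standard error 0.33, adjusted p = 0.00518, edgeR). How reads in the overlap were assigned was not tested.

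Rac2 made up 4.33%, 3.53%, 2.19% and 2.96% of the counts of Rac1 and Rac2 together in WT mice 1 to 4, and 9.86%, 12%, 9.30% and 7.92% in Ucp1Δ/Δ mice 1 to 4. Every Ucp1Δ/Δ mouse was above every WT mouse. The lower bounds of the 95% Wilson intervals ran from 5.38% to 9.37% in Ucp1Δ/Δ mice and the upper bounds from 4.46% to 8.02% in WT mice, so single mice overlapped in counting error. A two-sided exact permutation test of the share gave p = 0.0286, and 0.0762 after Benjamini-Hochberg adjustment over 8 ratios, this one and the ratios of each member to macrophage markers given further on.

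Nox4 (ENSMUSG00000030562), the gene of the oxidase that works without the cytosolic subunits, is protein coding and lies on the plus strand of chromosome 7 from 87246096 to 87398710. It had 3, 2, 2 and 0 counts in WT mice 1 to 4 and 20, 13, 10 and 14 in Ucp1Δ/Δ mice 1 to 4, or 1.53, 0.896, 0.668 and 0 CPM and 7.08, 4.05, 4.18 and 6.01 CPM. The genotypes did not overlap, and 3 WT mice were under 3 counts. The mean rose 6.89-fold from 0.773 ± 0.631 to 5.33 ± 1.47 CPM (SD, n = 4 each). The log2FC was 2.72 (standard error 0.52, adjusted p = 0.00141, edgeR), the widest error of the tested members, and the 95% interval for counting error of the pooled ratio ran from 3.16 to 18. The order of the Ucp1Δ/Δ mice also differed. Replicate 1 was highest and replicate 2 lowest for Nox4, whereas replicate 2 was highest for Cybb, Cyba, Ncf1, Ncf4 and Rac2. For Nox4, replicates 2 and 3 were close, at 4.05 and 4.18 CPM. The order rests on 10 to 20 counts per mouse for Nox4 and 3 to 11 for Ncf4, and was not tested. When Ucp1Δ/Δ replicate 1 or replicate 2 was left out, Nox4 fell under the filter on low counts and was not tested.

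The other genes of oxidase assembly and activation that had enough counts to be tested rose or did not pass the test. Of a list of 34 other NOX and DUOX isoforms, subunits, Rac regulators and upstream receptors, 15 were tested, 10 rose, none fell and 5 did not pass the test (median log2FC 2.09), beside 13.3% higher among all tested genes. Here too the filter let in genes that were low in WT mice, and the list was chosen with earlier results of these data known. With at least 10 counts required in every mouse, 4 genes of this list were tested and 1 was called higher. Among the receptors and integrins that trigger NOX2, Itgb2, the beta chain of the leukocyte integrins, went from 0.239 ± 0.277 to 10.6 ± 6.06 CPM (log2FC 5.33, standard error 0.69, adjusted p = 5.17e-05, edgeR). Its WT mice had 0 CPM or less than the limit of 3 counts, so the size of this difference is not well set. Fcgr3, a low-affinity IgG receptor, rose from 4.25 ± 1.88 to 42.6 ± 13.1 CPM (log2FC 3.29, standard error 0.31, adjusted p = 3.04e-06, edgeR). Syk, the kinase that acts under such receptors, rose from 1.77 ± 0.62 to 8.78 ± 0.933 CPM (log2FC 2.29, standard error 0.34, adjusted p = 0.000194, edgeR).

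Of the 5 regulators of Rac tested, Arhgdib, Arhgdia and Dock2 rose and Tiam1 and Vav2 did not pass the test. Arhgdib, a GDP-dissociation inhibitor of small GTPases found in blood cells, went from 3.89 ± 2.05 to 19.6 ± 4.42 CPM (log2FC 2.29, standard error 0.34, adjusted p = 0.000152, edgeR). Other higher genes, named after their values were seen, were Itgam, the alpha chain that pairs with Itgb2 (log2FC 2.30), the p47phox kinases Prkcb (2.20) and Prkcd (1.38), the Rac exchange factor Dock2 (2.10) and the widely made inhibitor Arhgdia (0.86), with adjusted p between 0.000247 and 0.0102 in edgeR's test. The genes that did not pass were Cybc1, the chaperone of the gp91phox and p22phox dimer (log2FC 0.51, adjusted p = 0.276), Tiam1 (0.37), Rap1a (-0.04), Poldip2, a p22phox-binding protein linked to NOX4 (-0.11), and Vav2 (-0.13), by the same test. Of the 19 genes not tested, Nox1, Nox3, Noxa1, Duox1 and Duoxa2 had no count in any mouse. Nox4 and Cybb were the NOX genes detected in these libraries, within the limit of 3 counts.

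**Figure D2:**
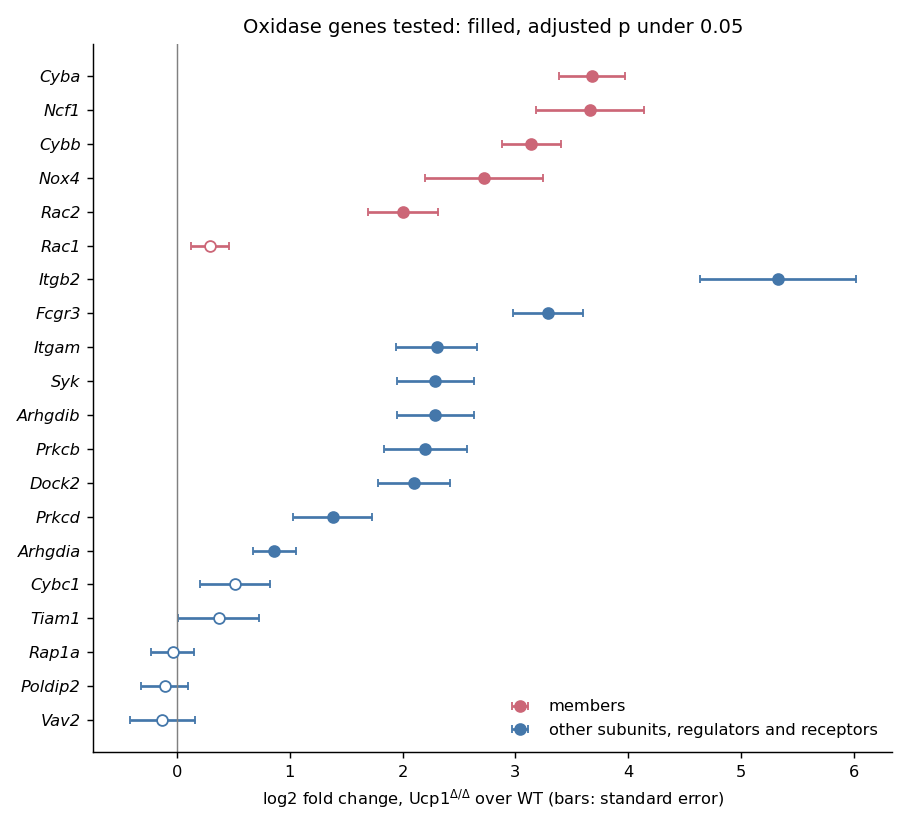
Log2FC of Ucp1Δ/Δ over WT mice (horizontal axis, bars are standard errors, n = 4 mice each) for the 6 members tested and 14 of the 15 tested genes of the list of other oxidase subunits, regulators and receptors; filled points have an adjusted p under 0.05 in the edgeR test. Of the filled points none lies below 0, and the open points, Rac1 among them, lie between -0.13 and 0.51.

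Most macrophage markers rose with the NOX2 genes. The 12 macrophage markers summed to between 119 and 177 CPM in WT mice and between 1018 and 1644 CPM in Ucp1Δ/Δ mice. Of the 10 tested, 8 rose, with a median log2FC of 2.97, beside 13.3% higher among all tested genes. Csf1r, the receptor for the macrophage growth factor, ran from 18.7 to 26.5 CPM in WT and from 146 to 209 CPM in Ucp1Δ/Δ mice. Cd68, a lysosomal protein of macrophages, ran from 1.67 to 4.48 and from 50.1 to 108 CPM. Adgre1, which encodes F4/80, ran from 0 to 4.93 and from 11.3 to 18.4 CPM. Cd68 and Adgre1 had enough counts to be tested through the Ucp1Δ/Δ mice. The number of markers called and their median log2FC therefore follow in part from the filter. Mertk (log2FC 0.90, adjusted p = 0.0549) and Cd163 (0.88, 0.0642) did not pass edgeR's test, and their genotypes overlapped. Cd14, not tested, ran from 1.52 to 4.03 CPM in WT and from 0.836 to 5.91 CPM in Ucp1Δ/Δ mice. Mertk, Cd163 and Cd14 were named after their values were seen. Fcgr1 stands both in this list and among the 34 oxidase genes.

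Markers of neutrophils, the other cell with abundant NOX2, were near 0 in both genotypes. None of the 12 neutrophil markers had enough counts to be tested, their summed level was between 1.01 and 8.96 CPM in WT and between 1.72 and 6.53 CPM in Ucp1Δ/Δ mice, and 5 of them, Ly6g included, had no count in any mouse. S100a8 reached 3.73 CPM at most, S100a9 2.83 CPM and Csf3r 1.34 CPM. B cell markers had 29 counts in all WT mice and 139 in all Ucp1Δ/Δ mice. Of these, 25 and 118 were of Ighm, the heavy chain of IgM and the single B cell marker tested (log2FC 1.99, adjusted p = 0.00971, edgeR), while Cd22 had 0 and 11 and Cd79a none. T cell markers had 39 and 117 counts and none was tested. Among them Cd2 had 5 and 36 counts without overlap between the genotypes, Cd3d 5 and 20, and Cd3e 9 and 12. Dendritic cell markers summed to between 16.7 and 29.1 CPM in WT and between 15.9 and 26.7 CPM in Ucp1Δ/Δ mice. Most of these counts, 177 in WT and 193 in Ucp1Δ/Δ mice, were of Zbtb46, and the other 5 markers together had 6 and 28. Ighm, Cd22, Cd2, Cd3d and Zbtb46 were named after their values were seen.

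Of the markers of non-immune cells in which Nox4 is known, those of fibroblasts rose for the most part. Fibroblast markers summed to between 320 and 437 CPM in WT and between 929 and 1681 CPM in Ucp1Δ/Δ mice, with 5 of 6 higher, and Pdgfra among them had a log2FC of 1.66 (adjusted p = 0.0226, edgeR). Mural cell markers summed to between 195 and 288 and between 303 and 338 CPM, with 2 of 6 higher. Endothelial markers summed to between 142 and 181 and between 201 and 217 CPM, with 1 of the 5 tested higher, and Pecam1 had a log2FC of 0.52 (adjusted p = 0.0647, edgeR). Brown adipocyte markers summed to between 13578 and 23323 CPM in WT and between 9967 and 14832 CPM in Ucp1Δ/Δ mice, with 3 of 8 lower and 1 higher. Those lower were Cidea (log2FC -1.16, adjusted p = 0.00211), Plin1 (-0.91, 0.0113) and Adipoq (-0.82, 0.00606), and Dio2 was higher (1.45, 0.0231), all by edgeR and named after their values were seen. Beside these counts, 13.3% of all tested genes were called higher and 7.63% lower. With so few genes in each list, the counts are not read as contrasts between the cell types. The part of each of these cell types in the rise of Nox4 or of the NOX2 genes was not tested.

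Set against the macrophage markers of the same mouse, the members gave different ratios, which depend on the markers summed. The mean CPM of these markers differed unevenly, from 1.44-fold for Cd14 and 1.81-fold for Cd163 to 12.7-fold for Lyz2 and 24.8-fold for Cd68. Lyz2 alone made 4848 of the 13949 marker counts in Ucp1Δ/Δ mice. Cybb made 40.8, 55.7, 47.9 and 45.9 counts per 1000 macrophage marker counts in WT mice 1 to 4 and 41.3, 56.2, 47.2 and 53.4 in Ucp1Δ/Δ mice 1 to 4. The genotypes covered nearly the same range (47.6 ± 6.19 and 49.5 ± 6.65, SD, n = 4 each, two-sided exact permutation test, p = 0.686). Cyba ran from 14.1 to 42.3 in WT mice, on 4 to 15 counts per mouse, and from 35.5 to 41.5 in Ucp1Δ/Δ mice (exact permutation p = 0.143). Ncf1 ran from 2.53 to 15.7 and from 8.62 to 11.4 (exact permutation p = 0.343), Ncf4 from 0 to 5.63 and from 1.06 to 2.08, and Nox4 from 0 to 9.40 and from 2.46 to 5.71, and these overlapped too, with WT values that rest on 0 to 5 counts per mouse. A p that misses the threshold at this depth does not show that the ratios are alike.

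Both Rac genes had lower ratios to the macrophage markers in Ucp1Δ/Δ mice. The summed markers went from a mean of 150 to 1263 CPM, and any gene that rises less than they do has a lower ratio. The lower ratios restate this and are no separate result on the Rac genes. Rac2 made 19.7 to 28.2 counts per 1000 macrophage marker counts in WT mice and 9.79 to 14.8 in Ucp1Δ/Δ mice, and Rac1 624 to 879 and 80.8 to 144. For both, the genotypes did not overlap, and the exact permutation p was 0.0286, the smallest possible, or 0.0762 after adjustment over the 8 ratios. Neither passed the threshold of 0.05 after that adjustment.

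**Figure D3:**
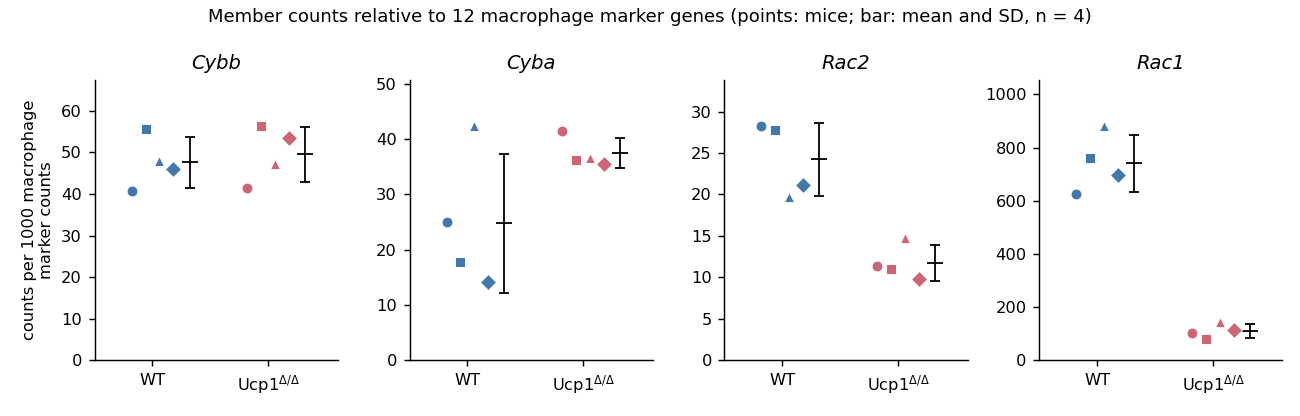
Counts of Cybb, Cyba, Rac2 and Rac1 per 1000 counts of 12 macrophage marker genes in the same mouse (vertical axes from 0, a different range in each panel), for 4 WT and 4 Ucp1Δ/Δ mice; points are mice and bars the mean and SD. Cybb covers 40.8 to 55.7 in WT and 41.3 to 56.2 in Ucp1Δ/Δ mice, whereas Rac2 and Rac1 are lower in every Ucp1Δ/Δ mouse than in any WT mouse.

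Across the 8 mice, the genes whose log2 CPM was most like that of Cybb, among 6425 genes with a mean of at least 10 CPM, were Spi1 (Pearson r = 0.999), Cd68 (0.998), Lyz2 (0.997), Lgals3 (0.996) and Trem2 (0.995). Spi1 encodes PU.1, and went from 3.68 to 41.7 CPM on average. For Rac2 they were Ecm2 (0.986), Cd52 (0.983), Slc29a3 (0.983), Idh2 (0.982) and Srxn1 (0.982), and for Nox4 Vnn1 (0.990), Blvra (0.989), Pcsk5 (0.986), Dusp3 (0.981) and Igsf6 (0.981). The genotype difference is shared by all 8 points and sets most of each r, so these values describe likeness only. Some of these genes reached a mean of 10 CPM through the Ucp1Δ/Δ mice, such as Trem2, at 0.112 CPM on average in WT mice. At such levels the prior count sets much of the log2 CPM. Among the members, r with Cybb was 0.97 for Cyba, 0.96 for Rac2, 0.94 for Ncf1, 0.89 for Ncf4 and Nox4 and 0.75 for Rac1.

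NADPH is the electron donor of the oxidases. Of 20 genes of NADPH supply and the pentose phosphate pathway, 16 were tested, 3 rose, 3 fell and 10 did not pass the test, with a median log2FC of 0.03. Among all tested genes 13.3% were higher and 7.63% lower, and with 3 genes in each direction nothing is read from the counts about the list as a whole. In mitochondria, Idh2, the NADP-dependent isocitrate dehydrogenase, rose from 161 ± 28.4 to 439 ± 28.5 CPM (log2FC 1.45, standard error 0.17, adjusted p = 2.20e-05, edgeR), and Mthfd2, a folate cycle enzyme, from 4.98 ± 1.79 to 18.8 ± 2.69 CPM (log2FC 1.91, standard error 0.27, adjusted p = 0.000117). G6pdx, the entry enzyme of the pentose phosphate pathway, rose from 68.4 ± 10.6 to 111 ± 21.4 CPM (log2FC 0.70, standard error 0.19, adjusted p = 0.0142, edgeR), a call that was lost without Ucp1Δ/Δ replicate 4 (adjusted p = 0.0519).

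Tkt and Taldo1, enzymes of the non-oxidative branch of the same pathway, which makes no NADPH itself, fell. Tkt, transketolase, went from 1950 ± 504 to 650 ± 198 CPM (log2FC -1.58, standard error 0.24, adjusted p = 0.000194, edgeR), and Taldo1, transaldolase, from 715 ± 109 to 292 ± 41.5 CPM (log2FC -1.29, standard error 0.17, adjusted p = 7.18e-05). Me1, the cytosolic malic enzyme that feeds NADPH to fatty acid synthesis, went from 250 ± 67.1 to 114 ± 18.6 CPM (log2FC -1.13, standard error 0.20, adjusted p = 0.000841, edgeR). For each of these 6 genes, named because they were called, the genotypes did not overlap. Called genes tend to lie apart, so this is no separate result. Among all tested genes, 14.4% had every Ucp1Δ/Δ mouse above every WT mouse, and the share in the lower direction is not given here. Nnt, the mitochondrial transhydrogenase, had 2 identifiers in the table and no more than 2 counts in any mouse. The C57BL/6J strain is known to carry a deletion in this gene.

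The genes that handle superoxide and peroxide for the most part did not pass the test. Of 23 genes, 22 were tested, 6 rose, 1 fell and 15 did not pass the test, with a median log2FC of 0.16, beside 13.3% higher and 7.63% lower among all tested genes. Hmox1, haem oxygenase, had the largest log2FC of them at 1.76 (standard error 0.40, adjusted p = 0.00467, edgeR), with 2.03 to 8.16 CPM in WT mice and 22.6, 23.3, 6.69 and 19.7 CPM in Ucp1Δ/Δ mice 1 to 4. Replicate 3 lay within the WT range. Gpx1, the main cellular glutathione peroxidase, rose from 580 ± 45.2 to 1194 ± 280 CPM (log2FC 1.04, standard error 0.18, adjusted p = 0.000675), and Gpx3, the secreted form, from 4268 ± 957 to 7022 ± 890 CPM (log2FC 0.72, adjusted p = 0.0142). Sod3, the extracellular superoxide dismutase, rose from 56.3 ± 16.1 to 103 ± 14.2 CPM (log2FC 0.86, adjusted p = 0.00626, edgeR).

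Srxn1, which repairs peroxiredoxins, rose from 39.1 ± 5.62 to 62.3 ± 8 CPM (log2FC 0.67, adjusted p = 0.0114, edgeR), a call that was lost without WT replicate 3 (adjusted p = 0.0539). Prdx6, a peroxiredoxin that was named after its values were seen, was the other higher gene (log2FC 0.51, adjusted p = 0.0395, edgeR). It was not called in 10 of 18 other fits (adjusted p up to 0.131), among them those without WT replicate 1, 3 or 4 or without Ucp1Δ/Δ replicate 1 or 4. Cat, the catalase of peroxisomes, fell from 536 ± 183 to 250 ± 59.8 CPM (log2FC -1.10, standard error 0.23, adjusted p = 0.0028, edgeR). Without the mice with the most muscle marker counts, which leaves 2 mice against 2, this list had 2 genes called higher. The calls of Hmox1 (log2FC 1.42), Sod3 (0.68), Srxn1 (0.76), Me1 (-0.71) and G6pdx (0.63) were lost there with directions kept.

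**Figure D4:**
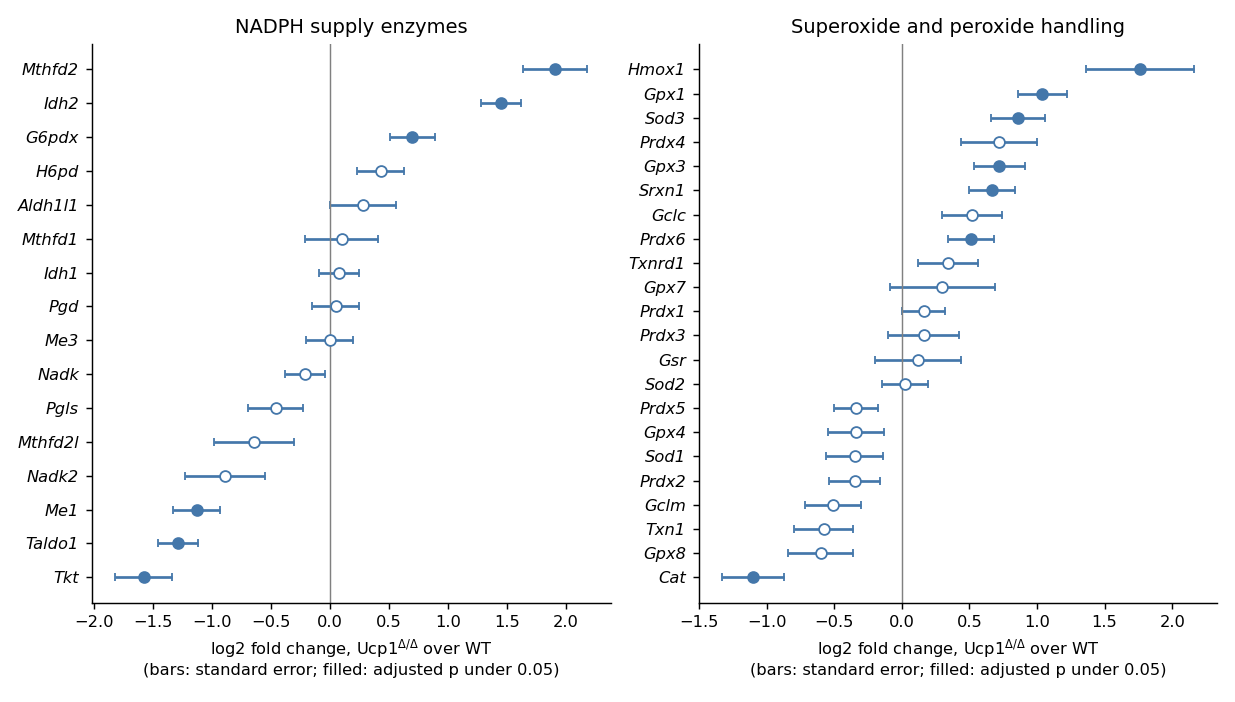
Log2FC of Ucp1Δ/Δ over WT mice (horizontal axis, bars are standard errors, n = 4 mice each) for the 16 tested NADPH supply genes (left) and the 22 tested genes of superoxide and peroxide handling (right), ordered by log2FC; filled points have an adjusted p under 0.05 in the edgeR test. On the left 3 filled points lie above 0 and 3 below, and on the right 6 lie above and 1, Cat, below.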

How the data were processed

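BAT of 4 WT and 4 Ucp1Δ/Δ mice was profiled with a digital mRNA-seq service, read from a single end. By the methods, the authors used bbduk for trimming, STAR for alignment to mm10 and HTseq-counts for counting by gene. Processing notes in the labels name Trimmomatic, HISAT2 and DESeq2 instead. Strand use and the annotation release are not given in the sources used here. The authors deposited whole-number counts without normalization, used for all main results, and log2 values of scaled counts, used in 1 alternative.

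Of 31053 identifiers, 30934 had a symbol. Genes were filtered with filterByExpr, scaled by TMM and tested with edgeR 4.0.16 (R 4.3.3, limma 3.58.1, DESeq2 1.42.0) on genotype alone, with Benjamini-Hochberg adjustment over 8930 genes and a threshold of 0.05. Log2 CPM used a prior count of 2. The test was checked on simulated data. Positions came from GENCODE annotation of mm10 and promoters from RefSeq GRCm38.p6.

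The members and lists were chosen with earlier results of these data known. Named were all 7 members, Pnpla2, up to 5 higher and 5 lower genes of each list by adjusted p, the 5 genes most like Cybb, Rac2 and Nox4, and defining cell markers, apart from items that are not reported here. Ncf4 and ratios were compared by exact permutation tests. Chi-square per degree of freedom between mice of the same genotype was 5.18 to 27.1, above sampling noise, so each library was counted once. The labels do not say whether mice shared a litter or cage, so p-values measure the spread between these samples. Alternatives were other scalings, tests, filters and thresholds, a replicate block, and each mouse left out.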

Additional observations from a re-analysis of the deposited data

Results flagged for a closer look

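In 5 of the 50 groups of 4 mice examined, 1 mouse stood far from the other 3 by Dixon's gap-to-range ratio on log2 CPM, where chance gives about 2.5. Ncf4 in WT replicate 3 had a ratio of 1, which any count above 0 gives when the other mice have none, as here with 2 counts in this mouse, so it says nothing beyond those counts. Rac1 in WT replicate 2 had a ratio of 0.857, at a log2 CPM of 7.08 beside 6.65 to 6.71 in the other WT mice. Hmox1 in Ucp1Δ/Δ replicate 3 had a ratio of 0.862, at 2.90 beside 4.36 to 4.59. Gpx3 in Ucp1Δ/Δ replicate 2 had a ratio of 0.872, at 12.48 beside 12.83 to 12.88. Me1 in Ucp1Δ/Δ replicate 1 had a ratio of 0.84, at 7.16 beside 6.69 to 6.76.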

How the results depend on the processing

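Cybb, Cyba, Ncf1, Rac2 and Nox4 stayed higher in every alternative that tested them, and Rac1 stayed without a call in all 19 alternatives (log2FC 0.24 to 0.43). With each mouse left out, log2FC ran from 2.90 to 3.32 for Cybb, 3.50 to 3.92 for Cyba, 3.27 to 4.43 for Ncf1, 1.79 to 2.17 for Rac2 and 2.37 to 3.15 for Nox4, and 4 or 5 members were called, Nox4 being untested without Ucp1Δ/Δ replicate 1 or 2. A filter of at least 10 counts in every mouse left 2 members to test, of which 1, Cybb, was called, and 4 genes of the list of 34, of which 1 was called. For Ncf4 the log2 difference ran from 1.27 to 1.72 with each mouse left out (exact permutation p = 0.0571, the smallest that 3 mice against 4 allow). DESeq2 gave Ncf4 a log2FC of 3.18 (adjusted p = 0.072).

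Over all genes, 746 were higher and 449 lower with at least 10 counts in every mouse, 779 and 290 at an adjusted p under 0.01, and 760 and 265 without the 2 mice of each genotype with most muscle marker counts, an alternative chosen after seeing the data. With each mouse left out, 400 to 851 genes were lower, the fewest without Ucp1Δ/Δ replicate 2. Scaling by total counts only moved the median log2FC of all genes to 0.13 and gave 1478 higher and 404 lower. Of the superoxide and peroxide handling genes, 3 were higher at 0.01 and 2 without the muscle-rich mice, and 2 were lower with DESeq2's Wald test, 2 with limma voom, 3 with at least 1 count in any mouse and 1 to 3 with each mouse left out, the 3 without WT replicate 4 or Ucp1Δ/Δ replicate 1. WT and Ucp1Δ/Δ mice of the same replicate number had correlations of -0.0873, -0.196, 0.304 and 0.241. Mice of different numbers were not compared in this way, so these values do not settle whether the numbers pair the mice. A fit with the replicate block called 5 members higher and 2 superoxide and peroxide handling genes lower. The causes of these shifts were not tested. Depth limits Ncf4, Nox4 and Ncf1, whose WT values rest on 0 to 5 counts per mouse.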
